A study of Mus musculus with 10 samples.

Results

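The genes of the extracellular matrix and of the integrins that bind it were followed through 10 RNA-seq libraries of mouse embryonic stem cells (ESCs) and of epiblast-like cells (EpiLCs) made from them. The set was taken by gene symbol: collagen chains, laminin chains, nidogens, perlecan (Hspg2), Sparc, fibulins, fibronectin (Fn1) and integrin subunits. It held 96 of the 22867 symbols in the deposited tables. Of these 96, 6 matched by name only and encode none of these proteins, such as Col4a3bp, a ceramide transfer protein. Levels are the authors' FPKM, fragments scaled to transcript length and to the mapped total of the library, so levels of different genes can be set side by side per length.

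The series compared ESCs with EpiLCs, and cells that lack or overexpress Otx2, a homeobox gene, with their controls. EpiLC libraries came from R1 cells without activin A, R1 cells with activin A at 20 ng/ml, E14 cells and Otx2-/- cells (1 library each), with the use of activin A unstated for the E14 and Otx2-/- cells. ESC libraries came from R1 (2 replicates), E14 and Otx2-/- cells. Another pair came from Otx2-/- ESCs that carry a tetON Otx2 transgene, with doxycycline (dox) and without it, with no dose or time of dox stated. All lines were of 129SV origin. All ESCs were grown without serum with LIF, 0.8 µM of the MEK inhibitor PD0325901 and 3.3 µM of the GSK3 inhibitor CHIR99021, on dishes coated with poly-L-ornithine (7.5 µg/ml) and laminin (5 µg/ml). EpiLCs had 48 h in bFGF and 1% knockout serum replacement on dishes coated with fibronectin (5 µg/ml). Coating and medium therefore changed together with cell state and cannot be told apart from it, here or in any comparison of EpiLC with ESC. Whether the Otx2-/- lines are single clones, and which part of Otx2 they lack, is not given.

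A basement membrane is the sheet of matrix under an epithelium. It is built from a laminin network and a collagen IV network, which nidogens and perlecan tie together. Each laminin is a trimer of an alpha, a beta and a gamma chain, and each integrin is a pair of an alpha and a beta subunit that decides which matrix protein the cell holds. In the early embryo a basement membrane lies between the epiblast and the primitive endoderm, and fibronectin is bound mainly through integrins with the Itga5 or Itgav subunit.

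Depth was between about 6.52M and 20.6M fragments per library. It was read from the lower quartile of olfactory receptor FPKM above 0, taken to be 1 fragment in about 1 kb. At 5 FPKM, 1 kb of transcript then rested on between 32.6 and 103 fragments. The labels held for the state markers: Fgf5, an epiblast growth factor gene, was between 28.4 and 35.8 FPKM in the R1 and E14 EpiLCs and between 0.566 and 0.809 FPKM in their ESCs. Klf4, a gene of naive pluripotency, was between 0.840 and 1.09 FPKM in EpiLCs and between 73.7 and 101 FPKM in ESCs. Otx2 had 15.8 FPKM in Otx2-/- EpiLCs, against 107, 151 and 39.9 FPKM in the other EpiLCs, and 7.85 FPKM in Otx2-/- ESCs, against 5.72, 9.09 and 3.96 FPKM in R1 ESC replicates 1 and 2 and E14 ESCs. The Otx2-/- library was thus the lowest of the EpiLCs but within the range of the other ESCs, so the level of Otx2 does not bear out that label in ESCs. Otx2 had 1059 FPKM with dox, against 45.8 FPKM without. Markers of other cells were checked by their sums. Of 17 genes of primitive and parietal endoderm, the layers that make the early basement membranes, 10 were under 1 FPKM in all libraries, and Sox17 was at most 0.257 FPKM anywhere. The 17 summed to between 13.9 and 16.9 FPKM in EpiLCs and between 6.67 and 11.2 FPKM in ESCs. In the limma fit of EpiLC against ESC given below, 4 of them were tested, of which 3 rose and 0 fell. Of all genes tested, 9.73% rose and 10.6% fell. The 3 were Krt19 (log2 difference 1.79, limma adjusted p = 0.0114), Dab2 (1.48, limma adjusted p = 0.0125) and Pth1r (1.46, limma adjusted p = 0.0279). Snai1, also tested, differed by -0.93 (limma adjusted p = 0.202). Among genes not tested, Gata4 was between 0.193 and 0.396 FPKM in EpiLCs and between 0.537 and 1.60 FPKM in ESCs. Hnf4a was between 0.134 and 0.229 FPKM in EpiLCs and between 0.396 and 0.635 FPKM in ESCs. Plat, Cubn and Afp, also untested, were higher in EpiLCs without overlap. Fibroblast markers (13 genes) summed to between 11.0 and 15.6 FPKM in EpiLCs and between 6.20 and 7.31 FPKM in ESCs, and endothelial markers (7 genes) to between 1.43 and 2.63 FPKM in EpiLCs and between 2.39 and 5.96 FPKM in ESCs. Leukocyte markers, nearly all of them Laptm5, are given with Itgal. One ESC library, R1 replicate 1, stood apart from R1 replicate 2: 11.5% of 9149 genes differed at least 2-fold between them. Results that turn on it are given with and without it.

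As R1 and E14 ESCs became EpiLCs, fibronectin, nidogen-1, the laminin alpha and beta chain genes Lama1 and Lamb2 and the gamma chain gene Lamc1 fell, while Lamb1, Col18a1 and the laminin-binding integrin genes Itga3, Itga6 and Itgb1 rose. Of the 96 genes, 50 were under 1 FPKM in every library, and 36 had the mean of 1 FPKM needed for the test. Over 3 EpiLC and 3 ESC libraries, 5 of these 36 rose and 10 fell at an adjusted p under 0.05 (limma with the line as a covariate, Benjamini-Hochberg over 12244 genes). Over all genes tested, 9.73% rose and 10.6% fell. The median log2 difference was -0.53 over the 36 genes, -0.49 over the 35 without Lama5, which is listed at 0 in 1 of the EpiLC libraries, and -0.09 over all genes tested. Without R1 ESC replicate 1, 6 of the set rose and 17 fell. Calls over all genes moved as well when 1 library was left out, to between 398 and 4118, against 2484 in the reported fit. The 6 and 17 are not set beside the share over all genes in their own fit, so they are not a result about the set. In bulk libraries such as these, fewer cells that express a gene and less of its RNA per cell cannot be told apart.

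**Figure D1:**
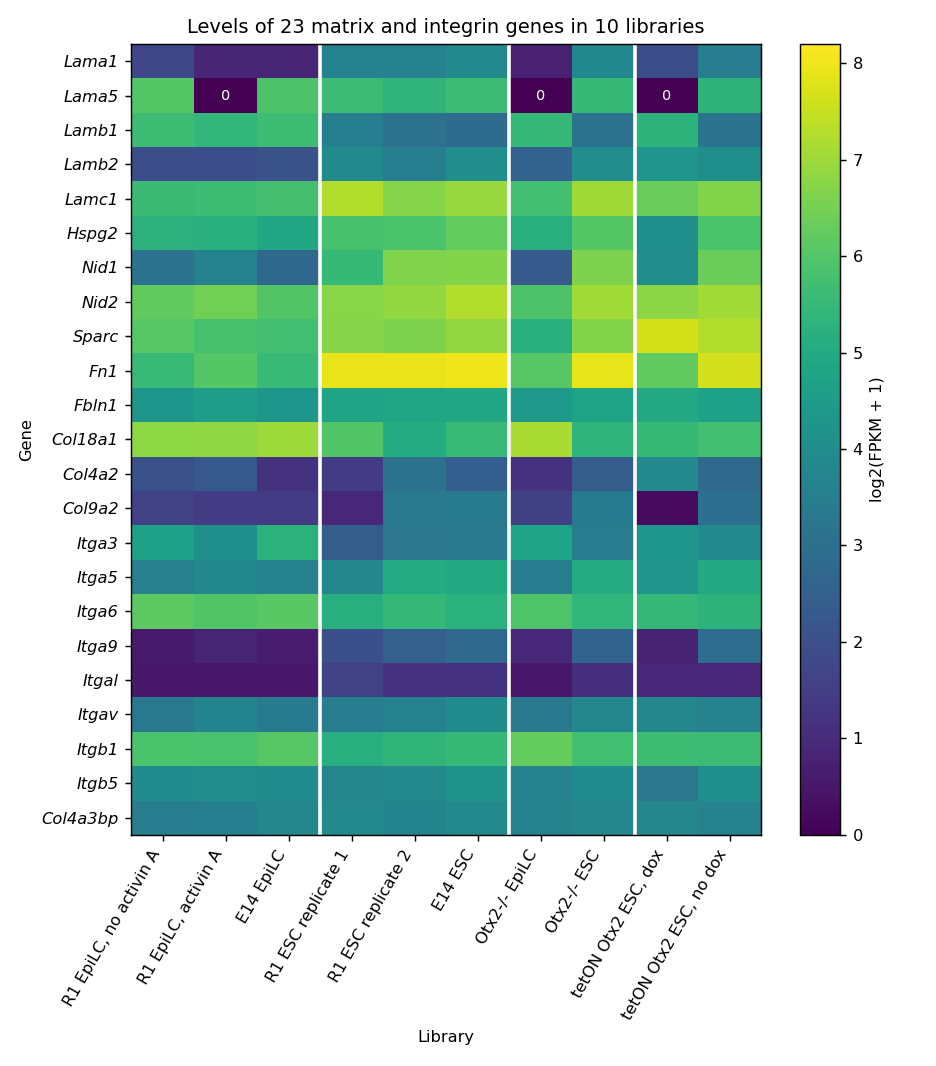
Level of 23 genes, as log2(FPKM + 1), in each of the 10 libraries, with EpiLC left of ESC, Otx2-/- EpiLC left of Otx2-/- ESC and dox left of no dox (white lines part the groups). In the R1, E14 and Otx2-/- columns Fn1 and Nid1 are brighter in ESC than in EpiLC and Col18a1 and Lamb1 the reverse, the dox column is near EpiLC for Fn1, Nid1 and Lamb1, and Lama5 is listed at 0 in 3 libraries.

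The laminin genes changed within each chain family, and the beta chains most plainly. Lamb1 and Lamb2 encode alternative beta chains, and their promoters are shown here because the pair moved in opposite directions. The windows run from 250 bases before to 50 bases after the RefSeq start (GRCm38.p6, both on the plus strand), and Lamb1 lies at chr12:31265043-31265342 and Lamb2 at chr9:108479612-108479911. Capitals mark the GC box GGGCGG, the CCAAT box CCAAT and the letters TAATCC, a core bound by Otx-type homeodomains, on either strand.
Lamb1: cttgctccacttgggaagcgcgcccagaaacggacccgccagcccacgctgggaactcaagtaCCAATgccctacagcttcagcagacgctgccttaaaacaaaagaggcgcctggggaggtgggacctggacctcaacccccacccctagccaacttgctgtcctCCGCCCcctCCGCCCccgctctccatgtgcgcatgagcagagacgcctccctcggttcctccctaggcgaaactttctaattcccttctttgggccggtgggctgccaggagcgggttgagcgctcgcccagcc
Lamb2: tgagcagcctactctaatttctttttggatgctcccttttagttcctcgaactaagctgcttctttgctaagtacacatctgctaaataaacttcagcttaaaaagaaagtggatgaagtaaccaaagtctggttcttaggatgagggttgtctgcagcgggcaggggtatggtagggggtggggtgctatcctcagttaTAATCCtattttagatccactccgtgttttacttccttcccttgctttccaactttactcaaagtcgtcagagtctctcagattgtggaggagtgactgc
The Lamb1 window held 2 GC boxes and 1 CCAAT box, and the Lamb2 window held neither but had 1 TAATCC. Among 32851 mouse promoter windows of this length, 35.66% held GGGCGG, 37.41% held CCAAT and 7.062% held TAATCC. Of the 77 windows of the set, 41 held GGGCGG, 21 held CCAAT and 2 held TAATCC.

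Lamb1 (mm9, chromosome 12, 31950158 to 32014504) had 49.2 FPKM in R1 EpiLCs without activin A, 42.0 FPKM with activin A and 48.9 FPKM in E14 EpiLCs, against 10.3 and 7.43 FPKM in R1 ESC replicates 1 and 2 and 6.27 FPKM in E14 ESCs. All EpiLC values lay above all ESC values. It averaged 46.7 ± 4.07 FPKM in EpiLCs and 7.99 ± 2.06 FPKM in ESCs (SD, n = 3 each), a log2 difference of 2.43 (SE 0.20, limma adjusted p = 0.00314). Lamb2 (chromosome 9, 108382192 to 108392861) had 2.92, 2.89 and 3.28 FPKM in R1 EpiLCs without activin A, with it and in E14 EpiLCs, against 14.1, 10.5 and 15.3 FPKM in R1 ESC replicates 1 and 2 and E14 ESCs. The groups did not overlap here either, in the opposite direction: 3.03 ± 0.219 FPKM in EpiLCs and 13.3 ± 2.52 FPKM in ESCs, a log2 difference of -1.81 (SE 0.16, limma adjusted p = 0.00388).

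Among the alpha chains, Lama1 (chromosome 17, 68046604 to 68171985), the main alpha chain of the early embryonic basement membranes, fell. It had 2.38, 0.858 and 0.833 FPKM in R1 EpiLCs without activin A, with it and in E14 EpiLCs, against 11.4, 11.5 and 13.8 FPKM in R1 ESC replicates 1 and 2 and E14 ESCs (log2 difference -2.55, SE 0.29, limma adjusted p = 0.00599). The lowest ESC library was above the highest EpiLC library. Lama5 (chromosome 2, 179911077 to 179960564), an alpha chain that early embryos and ESCs also make, had 64.2 FPKM in R1 EpiLCs without activin A and 59.3 FPKM in E14 EpiLCs, against 48.2, 39.3 and 48.5 FPKM in R1 ESC replicates 1 and 2 and E14 ESCs. In R1 EpiLCs with activin A, in Otx2-/- EpiLCs and in tetON cells with dox it was listed at exactly 0. Such a 0 in a gene this abundant elsewhere can be a failed estimate, so no fold is given for Lama5. It stays among the 36 genes tested and among the genes that reached 5 FPKM in the pairs, but a difference against such a 0 was not counted as called.

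The common gamma chain gene also fell. Lamc1 (chromosome 1, 155066051 to 155179916) had 47.3, 48.9 and 53.4 FPKM in R1 EpiLCs without activin A, with it and in E14 EpiLCs, against 153, 104 and 122 FPKM in R1 ESC replicates 1 and 2 and E14 ESCs. Its groups did not overlap, R1 ESC replicate 1 was the highest library, and the log2 difference was -1.31 (SE 0.19, limma adjusted p = 0.0112). The call ended when either R1 EpiLC library or either E14 library was left out, with log2 differences between -1.37 and -1.27 and limma adjusted p between 0.0551 and 0.0775. Of the 11 laminin genes, 4 were under 1 FPKM in every library.

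**Figure D2:**
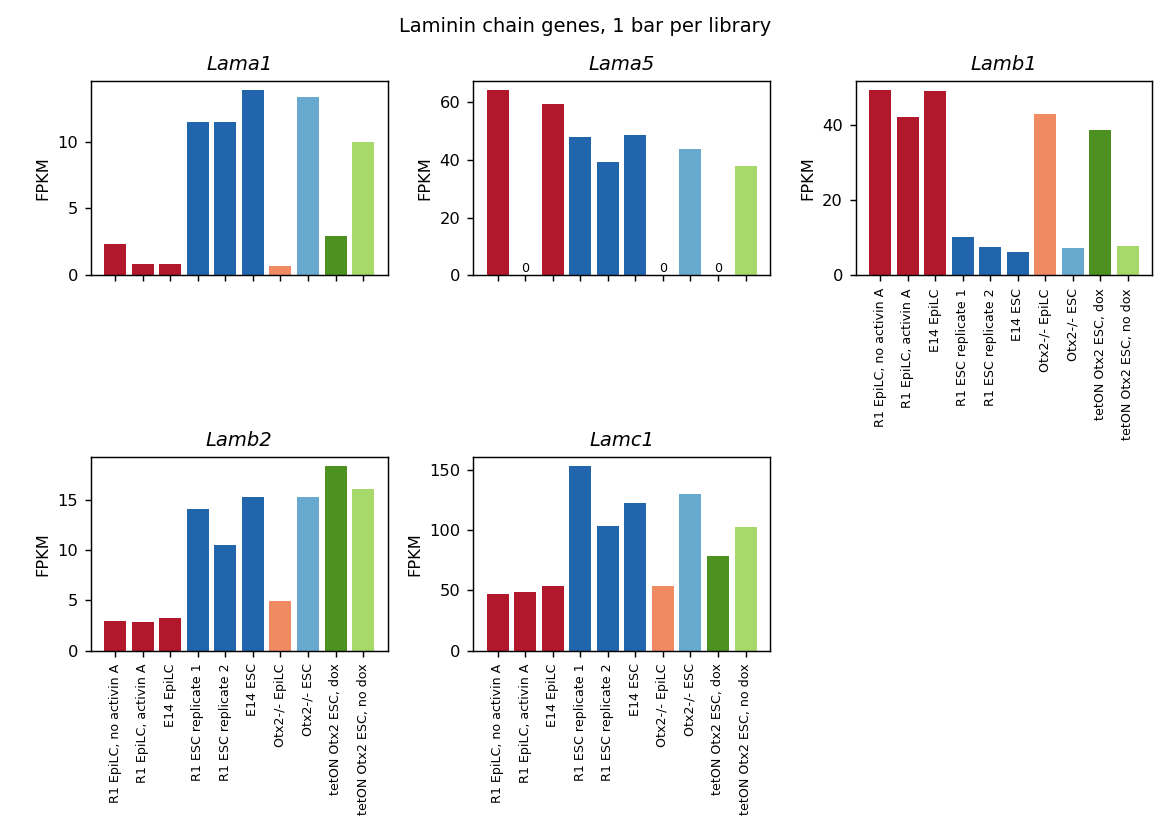
FPKM of 5 laminin chain genes, with 1 bar per library (red, EpiLC; blue, ESC; orange, Otx2-/- EpiLC; light blue, Otx2-/- ESC; dark green, tetON Otx2 ESC with dox; light green, without). Lamb1 stands at 42.0 FPKM or more in the R1 and E14 EpiLCs and at 10.3 FPKM or less in their ESCs, while Lama1, Lamb2 and Lamc1 run the other way.

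The bar plot of laminin chains shows the exchange of beta chains in full, and as shares it was as follows. Lamb1 made up 93.8%, 92.9% and 93.4% of the summed FPKM of Lamb1, Lamb2 and Lamb3 in R1 EpiLCs without activin A, with it and in E14 EpiLCs, against 40.7%, 40.9% and 28.8% in R1 ESC replicates 1 and 2 and E14 ESCs. The groups did not overlap, and a two-sided exact permutation test of 3 against 3 libraries gave p = 0.1, the smallest it can give. Lamc1 stood at between 0.908 and 1.09 times the sum of Lamb1 and Lamb2 in EpiLCs and at between 5.66 and 6.29 times that sum in ESCs (exact permutation p = 0.1 over 3 and 3 libraries). The gamma chain RNA was thus several times the beta chain RNA per length in ESCs and about level with it in EpiLCs. Of 6 such shares and ratios, 5 reached that smallest p and 1 did not. They use the same libraries as the limma fit and mostly genes it tested, so this tally is no further support. The permutation also leaves out the line.

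The linkers of the basement membrane were lower in EpiLCs. Nid1 (chromosome 13, 13529868 to 13604542), nidogen-1, had 7.68, 11.2 and 5.82 FPKM in R1 EpiLCs without activin A, with it and in E14 EpiLCs, against 44.4, 99.1 and 101 FPKM in R1 ESC replicates 1 and 2 and E14 ESCs. Even R1 ESC replicate 1, the lowest of the ESCs, was above every EpiLC library, and the log2 difference was -3.11 (SE 0.41, limma adjusted p = 0.00906). Without R1 EpiLC lacking activin A it was -3.08 (limma adjusted p = 0.0526), and without E14 EpiLC -2.71 (limma adjusted p = 0.0511). Nid2, nidogen-2, had 71.7, 85.8 and 61.4 FPKM in the same order of EpiLCs, against 105, 117 and 153 FPKM in R1 ESC replicates 1 and 2 and E14 ESCs. Its groups did not overlap, but the log2 difference of -0.76 (SE 0.21) missed the threshold (limma adjusted p = 0.0612). Without R1 ESC replicate 1 the difference in Nid2 was -0.88 (limma adjusted p = 0.0345). Nid1 made up 9.68%, 11.5% and 8.66% of nidogen FPKM in the EpiLCs, against 29.7%, 45.9% and 39.9% in the ESCs (exact permutation p = 0.1 over 3 and 3 libraries).

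Hspg2, perlecan, averaged 34.4 ± 4.54 FPKM in EpiLCs and 63.3 ± 11.1 FPKM in ESCs (SD, n = 3 each), a log2 difference of -0.85 (SE 0.19, limma adjusted p = 0.0338). Sparc, a secreted protein that binds collagen, averaged 58.2 ± 7.70 FPKM in EpiLCs and 105 ± 9.40 FPKM in ESCs (SD, n = 3 each), a log2 difference of -0.84 (SE 0.16, limma adjusted p = 0.0227). Of the 4 nidogen, perlecan and Sparc genes, 3 fell (Nid1, Hspg2 and Sparc), where 10.6% of all genes tested fell. The groups did not overlap for Hspg2 or for Sparc. Both lost the call in each fit without either R1 EpiLC library or either E14 library, with log2 differences between -0.96 and -0.61 and limma adjusted p between 0.0852 and 0.123, and Hspg2 also without R1 ESC replicate 2 (-0.91, limma adjusted p = 0.0674) and after quantile scaling (-0.68, limma adjusted p = 0.0788).

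Fn1 (chromosome 1, 71632096 to 71699745), fibronectin, was the most abundant gene of the set in ESCs. It had 46.5, 65.1 and 46.1 FPKM in R1 EpiLCs without activin A, with it and in E14 EpiLCs, against 242, 244 and 256 FPKM in R1 ESC replicates 1 and 2 and E14 ESCs. The highest EpiLC library was far below the lowest ESC library, with means of 52.6 ± 10.8 FPKM in EpiLCs and 247 ± 7.51 FPKM in ESCs (SD, n = 3 each). The log2 difference was -2.23 (SE 0.18, limma adjusted p = 0.00314). Fibronectin protein coated the EpiLC dishes, where its own gene was low, and laminin protein coated the ESC dishes. Fbln1, fibulin-1, which binds fibronectin and basement membrane proteins, averaged 20.2 ± 2.17 FPKM in EpiLCs and 27.6 ± 1.24 FPKM in ESCs (SD, n = 3 each) and missed the threshold (log2 difference -0.43, SE 0.14, limma adjusted p = 0.0847). Of the 4 fibulin genes, 2 were under 1 FPKM in every library. None of the 4 tested genes matched by name only was called, such as Col4a3bp (log2 difference -0.23, limma adjusted p = 0.249).

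Collagen genes were mostly silent: 29 of 43 were under 1 FPKM in every library, among them 20 of the 24 outside the fibrillar and basement membrane groups. The exception in level was Col18a1 (chromosome 10, 76514923 to 76629275), the basement membrane collagen that is cut to release endostatin. It had 111, 112 and 128 FPKM in R1 EpiLCs without activin A, with it and in E14 EpiLCs, against 62.3, 32.9 and 46.4 FPKM in R1 ESC replicates 1 and 2 and E14 ESCs. The lowest EpiLC library was well above the highest ESC library, which was R1 replicate 1, and Col18a1 rose with a log2 difference of 1.34 (SE 0.25, limma adjusted p = 0.0221). Its call ended without either R1 EpiLC library or either E14 library, with log2 differences between 1.29 and 1.36 and limma adjusted p between 0.0944 and 0.107.

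The other basement membrane collagens detected were Col4a1 and Col4a2, whose chains form the collagen IV network. The pair sits head to head on chromosome 8 (mm9, Col4a1 at 11198422 to 11312826 and Col4a2 at 11312828 to 11449287), and their promoter windows are shown because the start sites share them. In GRCm38.p6 the Col4a1 window is chr8:11312777-11313076 on the minus strand and the Col4a2 window is chr8:11312555-11312854 on the plus strand, with 78 bases in common (11312777 to 11312854). Capitals mark GGGCGG and CCAAT on either strand.
Col4a1: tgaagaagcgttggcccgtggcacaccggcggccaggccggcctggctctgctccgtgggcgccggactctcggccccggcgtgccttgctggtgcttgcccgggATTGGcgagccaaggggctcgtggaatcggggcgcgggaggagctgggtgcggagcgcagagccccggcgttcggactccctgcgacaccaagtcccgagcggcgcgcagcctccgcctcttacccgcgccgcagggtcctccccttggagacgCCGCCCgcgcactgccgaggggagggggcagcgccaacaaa
Col4a2: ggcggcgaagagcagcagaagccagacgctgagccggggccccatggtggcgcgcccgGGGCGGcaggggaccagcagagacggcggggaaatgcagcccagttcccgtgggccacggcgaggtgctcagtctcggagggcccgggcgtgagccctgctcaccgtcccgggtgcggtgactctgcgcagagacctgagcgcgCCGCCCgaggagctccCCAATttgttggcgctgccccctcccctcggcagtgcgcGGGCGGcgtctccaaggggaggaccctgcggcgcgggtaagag
The Col4a1 window held 1 GC box and 1 CCAAT box, and the Col4a2 window held 3 GC boxes and 1 CCAAT box. The shared bases hold 1 GC box, which is counted in both windows.

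Col4a1 had 7.03, 8.03 and 3.40 FPKM in R1 EpiLCs without activin A, with it and in E14 EpiLCs, against 4.96, 16.0 and 10.4 FPKM in R1 ESC replicates 1 and 2 and E14 ESCs. Col4a2 had 3.11, 3.81 and 1.32 FPKM in the EpiLCs, against 1.76, 7.31 and 4.52 FPKM in the ESCs, in the same order. The groups overlapped because of R1 ESC replicate 1, which lay among the EpiLCs for both genes. With all 6 libraries the log2 differences were -0.62 for Col4a1 (SE 0.46, limma adjusted p = 0.368) and -0.49 for Col4a2 (SE 0.48, limma adjusted p = 0.490), and without that library they were -1.16 (limma adjusted p = 0.00757) and -1.05 (limma adjusted p = 0.0115). The pair varied together: the ratio of Col4a1 to Col4a2 lay between 2.11 and 2.58 in EpiLCs and between 2.19 and 2.81 in ESCs (exact permutation p = 0.6 over 3 and 3 libraries), and across all 10 libraries r was 0.96 and rho 0.98 on log2(FPKM + 1), as a description.

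**Figure D3:**
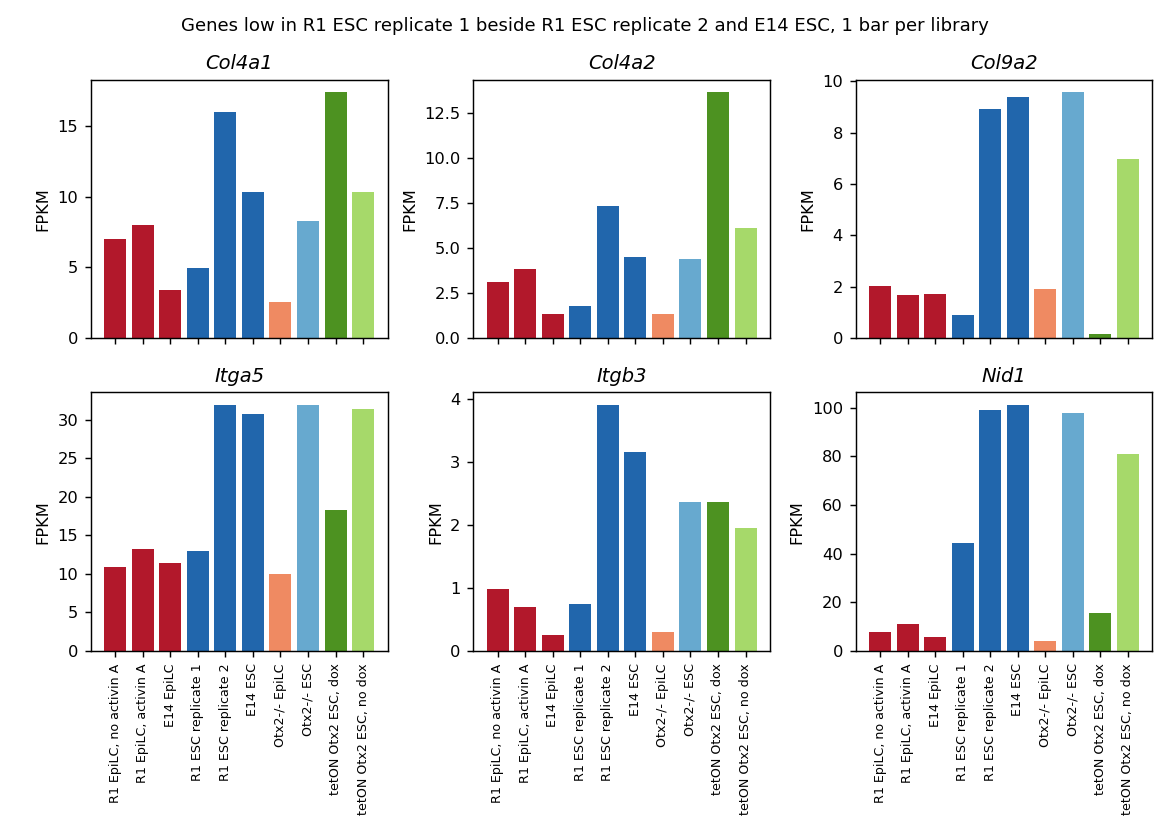
FPKM of 6 genes with 1 bar per library, in the colours of the laminin plot. For Col4a1, Col4a2, Col9a2, Itga5 and Itgb3, R1 ESC replicate 1 (the first blue bar) stands near the EpiLC bars (red) and away from R1 ESC replicate 2, E14 ESC and Otx2-/- ESC; for Nid1 it lies between them.

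The bar plot of genes low in R1 ESC replicate 1 shows 6 genes whose ESC level depended on that library. Between the R1 ESC replicates, 5 of 25 genes of the set that reached 5 FPKM were at least 2-fold lower in replicate 1 and 0 were higher, while 5.42% of all genes were lower and 6.09% higher by this rule. They were Col9a2 (log2 ratio -2.39), Col4a2 (-1.59), Col4a1 (-1.51), Itga5 (-1.24) and Nid1 (-1.14). Col9a2, a chain of the cartilage collagen IX, had 2.04, 1.67 and 1.72 FPKM in the EpiLCs, against 0.894, 8.91 and 9.40 FPKM in R1 ESC replicates 1 and 2 and E14 ESCs. When R1 ESC replicate 1 was left out, 8 more genes fell: Col4a1, Col4a2, Nid2, Col9a2, Itga5, Itgb3, Col5a1 and Col5a3. Calls over all genes also moved when a library was left out, so this count is not particular to the set. Col9a2 had a log2 difference of -1.86 without that library (limma adjusted p = 0.00309) and of -1.05 with it (limma adjusted p = 0.302). Itga5 had -1.35 without it (limma adjusted p = 0.00437) and -0.93 with it (limma adjusted p = 0.124). For Itgb3, the beta subunit that pairs with Itgav, the values were -1.55 without it (limma adjusted p = 0.00636) and -1.02 with it (limma adjusted p = 0.170), and for the fibrillar collagen gene Col5a1 they were -1.09 without it (limma adjusted p = 0.00672) and -0.75 with it (limma adjusted p = 0.147). Col5a3 (-0.79 without it, limma adjusted p = 0.0232) averaged under 1 FPKM with all 6 libraries and was not tested there. Col2a1, a fibrillar collagen chain, was called higher without it (log2 difference 0.60, limma adjusted p = 0.0378) but not with it (0.77, limma adjusted p = 0.0566), and Itgal, whose mean was then under 1 FPKM, was not tested. Col5a1 had 1.56, 1.52 and 1.82 FPKM in the EpiLCs, against 1.66, 4.55 and 4.79 FPKM in the ESCs.

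The laminin-binding subunits Itga3 and Itga6 and their partner Itgb1 rose, whereas the fibronectin receptor subunit Itga5 was lower in EpiLCs than in 2 of the 3 ESC libraries. Itga3 had 24.9, 15.9 and 37.4 FPKM in R1 EpiLCs without activin A, with it and in E14 EpiLCs, against 4.29, 8.59 and 8.90 FPKM in R1 ESC replicates 1 and 2 and E14 ESCs (log2 difference 1.69, SE 0.30, limma adjusted p = 0.0179). Itga6 had 69.8, 62.2 and 67.8 FPKM in the EpiLCs, against 34.4, 43.3 and 37.1 FPKM in the ESCs (0.79, SE 0.15, limma adjusted p = 0.0218). Neither gene's groups overlapped, and Itga6 was the most abundant alpha subunit in every library. Itgb1, the beta subunit that pairs with most matrix-binding alpha subunits, had 58.0, 56.7 and 66.8 FPKM in the EpiLCs, against 33.9, 40.3 and 43.7 FPKM in the ESCs (0.61, SE 0.13, limma adjusted p = 0.0303). The calls of Itga3, Itga6 and Itgb1 ended without the R1 EpiLC library lacking activin A or without either E14 library, and those of Itga6 and Itgb1 also without the R1 EpiLC library with activin A, with limma adjusted p between 0.0903 and 0.186 and log2 differences between 0.60 and 1.56.

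Itga5 had 10.9, 13.2 and 11.4 FPKM in the EpiLCs, against 13.0, 32.0 and 30.8 FPKM in R1 ESC replicates 1 and 2 and E14 ESCs. R1 ESC replicate 1 again lay among the EpiLCs, and the difference was not called with it included (-0.93, SE 0.36, limma adjusted p = 0.124). Itgav, an alpha subunit that binds fibronectin and vitronectin, had 8.78, 12.1 and 9.38 FPKM in the EpiLCs, against 9.83, 11.3 and 14.4 FPKM in the ESCs, with overlapping groups (-0.21, SE 0.20, limma adjusted p = 0.476). Itgb5, a partner of Itgav, had 14.7, 15.3 and 15.0 FPKM in the EpiLCs, against 12.4, 13.6 and 17.9 FPKM in the ESCs, which also overlapped (0.05, SE 0.15, limma adjusted p = 0.838), and its sign turned without R1 ESC replicate 1 (-0.031) and without R1 EpiLC with activin A (-0.010). As shares of all integrin alpha FPKM, the laminin-binding subunits Itga3, Itga6 and Itga7 together made up 78.7%, 71.9% and 79.7% in the EpiLCs, against 54.7%, 49.7% and 45.3% in the ESCs. Itga5 made up 9.05%, 12.2% and 8.61% in the EpiLCs, against 18.2%, 30.3% and 30.0% in the ESCs. Both shares separated the groups fully (exact permutation p = 0.1 each over 3 and 3 libraries). They have the same denominator, so they are not independent. The level of Itga5 itself overlapped between the groups. Its share was higher in R1 ESC replicate 1 than in R1 EpiLCs with activin A because the alpha sums were 71.4 and 109 FPKM.

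A pair of low alpha subunits fell as well. Itga9, which binds tenascin and osteopontin among others, averaged 0.633 ± 0.153 FPKM in EpiLCs and 4.52 ± 1.50 FPKM in ESCs (SD, n = 3 each), a log2 difference of -1.73 (SE 0.24, limma adjusted p = 0.0107). Without the R1 EpiLC library lacking activin A it was -1.71 and without either E14 library -1.52 (limma adjusted p between 0.0538 and 0.0654). Itgal, the alpha subunit of a leukocyte integrin, averaged 0.460 ± 0.0274 FPKM in EpiLCs and 1.55 ± 0.423 FPKM in ESCs (SD, n = 3 each), a log2 difference of -0.79 (SE 0.20, limma adjusted p = 0.0461). Its call ended without either R1 EpiLC library or E14 EpiLC (log2 differences between -0.88 and -0.76, limma adjusted p between 0.104 and 0.215), and with a pseudocount of 5 FPKM (-0.26, limma adjusted p = 0.0541). Of the 5 leukocyte markers found, Laptm5 moved the same way (between 4.13 and 7.89 FPKM in EpiLCs and between 37.8 and 62.7 FPKM in ESCs), and the 5 summed to between 4.18 and 8.17 FPKM in EpiLCs and between 38.5 and 63.1 FPKM in ESCs. Ptprc, the gene that defines leukocytes, was at most 0.0136 FPKM in the R1 and E14 EpiLCs and was listed at 0 in their ESCs. In all, 2 of 8 alpha subunit genes tested rose and 2 fell, and 1 of 5 beta subunit genes rose and 0 fell. Of all genes tested, 9.73% rose and 10.6% fell. The files put 9 of the 18 alpha and 4 of the 9 beta subunit genes under 1 FPKM in every library.

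**Figure D4:**
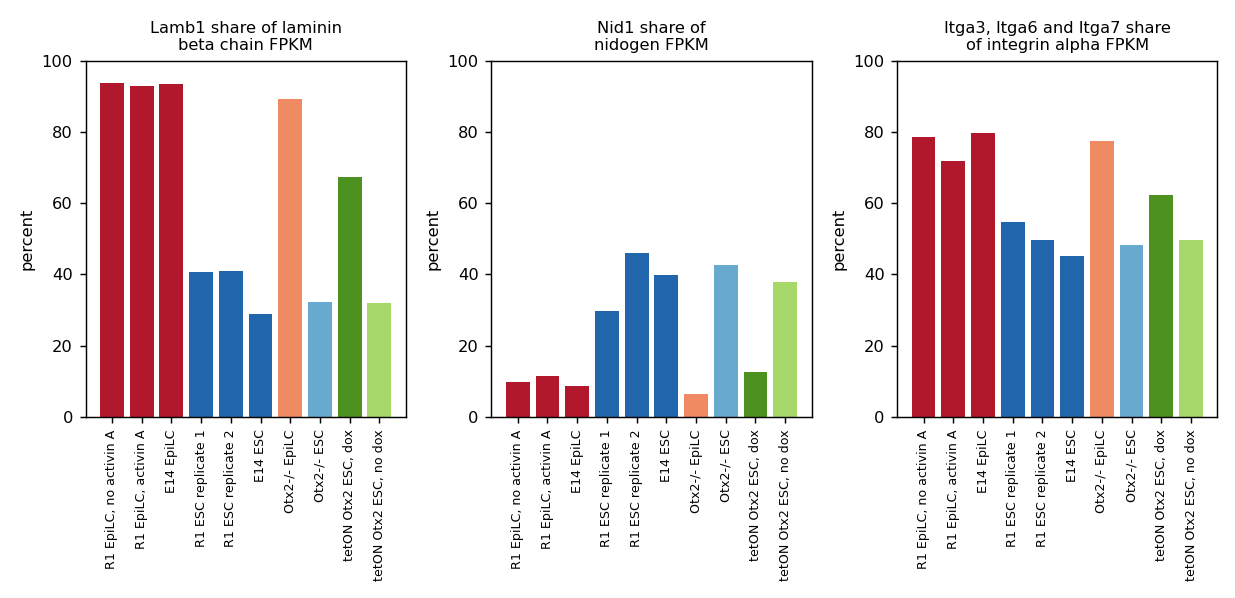
Share of Lamb1 in laminin beta chain FPKM, of Nid1 in nidogen FPKM and of Itga3, Itga6 and Itga7 in integrin alpha FPKM, as percent, with 1 bar per library in the colours of the laminin plot. Lamb1 makes up 92.9% or more in R1 and E14 EpiLCs and 40.9% or less in their ESCs, and the dox library lies between them for all 3 shares.

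The plot of chain shares sets all 10 libraries on one scale, and Otx2-/- cells lay beside R1 and E14 cells of the same state. Lamb1 made up 89.4% of beta chain FPKM in Otx2-/- EpiLCs, against 32.2% in Otx2-/- ESCs. Nid1 made up 6.38% of nidogen FPKM in Otx2-/- EpiLCs, against 42.6% in Otx2-/- ESCs. The laminin-binding alpha subunits made up 77.5% of integrin alpha FPKM in Otx2-/- EpiLCs, against 48.2% in Otx2-/- ESCs. All 3 shares differed between the Otx2-/- states in the direction seen in R1 and E14, with 1 library per state.

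In the Otx2-/- pair 14 of the 23 genes of the set that reached 5 FPKM differed at least 2-fold, 3 higher and 11 lower in EpiLCs, where 6.99% of all genes were higher and 8.47% lower. Lamb1 had 42.8 FPKM in Otx2-/- EpiLCs and 7.33 FPKM in Otx2-/- ESCs (log2 ratio 2.39), and Col18a1 had 143 FPKM in Otx2-/- EpiLCs and 39.5 FPKM in Otx2-/- ESCs (1.83). Nid1 had 4.05 FPKM in Otx2-/- EpiLCs and 97.6 FPKM in Otx2-/- ESCs (-4.29). Fn1 had 66.7 FPKM in Otx2-/- EpiLCs and 239 FPKM in Otx2-/- ESCs (-1.82). In E14 cells, also with 1 library per state, 3 of 23 genes were higher and 12 lower in EpiLCs, where 6.89% of all genes were higher and 9.24% lower. For comparison, the log2 ratios of the E14 pair were 2.78 for Lamb1, 1.45 for Col18a1, -3.90 for Nid1 and -2.44 for Fn1.

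No gene of the set passed a test of the difference between lines. Otx2-/- EpiLCs were compared with the 3 R1 and E14 EpiLC libraries, Otx2-/- ESCs with the 3 ESC libraries and the Otx2-/- response with that of R1 and E14, in limma fits over 8 libraries, where the spread of the single Otx2-/- libraries is taken to be that of the rest. In these fits 0 of the 36 genes tested were called, where 0.163%, 0.139% and 0.277% of 12271 genes were. At an unadjusted p under 0.05 the counts in the set were 1, 0 and 0. The 1 gene was Sparc, with 36.3 FPKM in Otx2-/- EpiLCs, against 66.9, 55.5 and 52.3 FPKM in R1 EpiLCs without activin A, with it and in E14 EpiLCs (log2 difference -0.66, SE 0.20, limma adjusted p = 0.96). The Otx2-/- library was the lowest of the 4 EpiLC libraries. The response of E14 minus that of R1 was likewise called for 0 of 36 genes, where 0.327% of 12244 genes were, and 1 gene, Hspg2, had an unadjusted p under 0.05 (-0.74, limma adjusted p = 0.914). With 1 library per state in Otx2-/- and E14 cells, these fits cannot show that the lines respond alike.

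With dox, some of the same genes differed in tetON Otx2 ESCs and others did not. Between tetON cells with and without dox, 2 of 25 genes of the set that reached 5 FPKM were at least 2-fold higher with dox and 6 were lower, where 6.42% of all 9304 genes were higher and 5.71% lower. This pair, like every pair of single libraries here, has no replicate check, and no p-value is given. By the same rule, 12.1% of all genes and 8 of 25 of the set differed with dox in either direction. Between the 2 R1 ESC replicates, 11.5% of all genes and 5 of 25 of the set did. Nid1, Col9a2 and Col4a2 passed the rule in both pairs. Lamb1 had 38.6 FPKM with dox and 7.73 FPKM without (log2 ratio 2.18). Among the linkers and fibronectin, Nid1 had 15.7 FPKM with dox and 80.9 FPKM without (-2.29), Fn1 had 72.6 FPKM with dox and 198 FPKM without (-1.43), and Hspg2 had 15.8 FPKM with dox and 58.2 FPKM without (-1.82). Lama1 had 2.93 FPKM with dox and 9.94 FPKM without (-1.48), Itga9 had 0.736 FPKM with dox and 6.56 FPKM without (-2.12), and Col9a2 had 0.171 FPKM with dox and 6.98 FPKM without (-2.77). Of these 7 genes, all but Col9a2 were also called, in the same direction, in EpiLCs of R1 and E14. The other gene past the rule, Col4a2, was higher with dox (1.04) and not called in EpiLCs (-0.49, limma adjusted p = 0.490). The share of all genes past the rule with dox that were also called in EpiLCs was not computed.

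Other genes did not follow. Col18a1 had 44.2 FPKM with dox and 52.0 FPKM without (-0.23), and Lamb2 had 18.4 FPKM with dox and 16.1 FPKM without (0.18). Itga6 had 42.6 FPKM with dox and 38.7 FPKM without (0.13), and Itgb1 had 49.8 FPKM with dox and 48.4 FPKM without (0.04). These 4 genes, called in R1 and E14 EpiLCs, had a dox ratio under the 2-fold rule, and Col18a1 and Lamb2 had the opposite sign. They are not the only ones. Itga3 (log2 ratio 0.39) and Lamc1 (-0.37), also called in EpiLCs, stayed under the rule too. Itgal (0.002) did not reach 5 FPKM in this pair and could not be counted. Of the 15 genes of the set called in EpiLCs, only Lamb1, Nid1, Fn1, Hspg2, Lama1 and Itga9 passed the rule with dox. Col4a2 had 13.7 FPKM with dox and 6.11 FPKM without (1.04), and Col4a1 had 17.4 FPKM with dox and 10.4 FPKM without (0.70), so both collagen IV genes were higher with dox than in any other library. Sparc had 202 FPKM with dox and 153 FPKM without (0.40), also its highest value and opposite in direction to its fall in EpiLCs. The share of Lamb1 in beta chain FPKM was 67.4% with dox and 32.1% without, and the dox value lay below those of all EpiLC libraries. Endoderm markers moved with this pair: the 17 genes summed to 70.2 FPKM with dox and 23.3 FPKM without, of which Snai1 gave 39.2 FPKM with dox and 4.46 FPKM without and Krt19 gave 21.7 FPKM with dox and 14.5 FPKM without. In Otx2-/- ESCs Krt19 had 0.776 FPKM. Of the 17, 11 were higher and 5 lower with dox by any amount, and 10 of the 17 were under 1 FPKM in every library. The share of all genes higher or lower by any amount was not counted, so these counts show no shift of the list. Gata4 was 3.08 FPKM with dox and 1.00 FPKM without, and Sox17 was 0.256 FPKM with dox and 0.151 FPKM without, while Sox7 was 0.302 FPKM with dox and 0.660 FPKM without and Hnf4a was 0.205 FPKM with dox and 0.529 FPKM without. Fibroblast markers (13 genes) summed to 16.6 FPKM with dox and 8.45 FPKM without, with 11 higher and 2 lower with dox, counted in the same way and with the same limit. Whether endoderm or fibroblast cells were present, and their part in the collagen IV, laminin and Sparc values, was not tested.

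**Figure D5:**
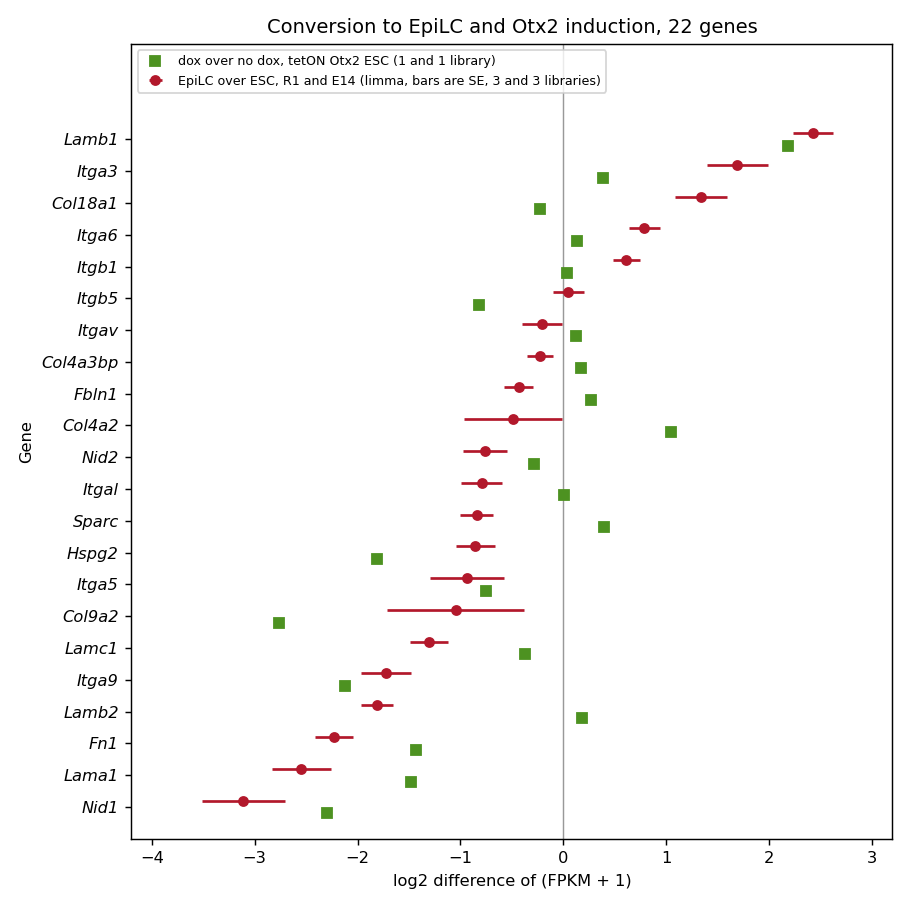
Log2 difference of (FPKM + 1) for 22 genes, in EpiLC over ESC of R1 and E14 (red circles, bars are the SE of the limma fit over 3 and 3 libraries) and in dox over no dox of tetON Otx2 ESCs (green squares, 1 library each). Lamb1, Nid1, Lama1, Fn1 and Itga9 lie far from 0 on the same side in both, while Col18a1, Itga6, Itgb1 and Lamb2 have squares near 0 or on the other side.

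The plot of log2 differences shows both sets of values gene by gene, and the difference between them was not tested. Between the tetON line without dox and Otx2-/- ESCs, 0 of 24 genes of the set differed at least 2-fold. Of all genes 2.7% did, a share at which 0 of 24 does not set these genes apart from the rest. The log2 ratios in the set ran between -0.41 (Col9a2) and 0.59 (Sparc). Otx2 itself was 45.8 FPKM in tetON cells without dox and 7.85 FPKM in Otx2-/- ESCs. Activin A moved 0 of 19 genes of the set past 2-fold in R1 EpiLCs, where 2.14% of all genes passed. The log2 ratios of activin A over none ran between -0.61 for Itga3 (15.9 FPKM with activin A and 24.9 FPKM without) and 0.49 for Nid1 (11.2 FPKM with activin A and 7.68 FPKM without), and Fn1 had 65.1 FPKM with activin A and 46.5 FPKM without (0.48).

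Genes around the set were read in the same limma fit of EpiLC against ESC, where 9.73% of all genes tested rose and 10.6% fell. Of 22 tested genes for processing and turnover of matrix, 4 rose and 7 fell (median log2 difference 0.02). Pcolce, an enhancer of procollagen cleavage, averaged 19.2 ± 1.74 FPKM in EpiLCs and 88.6 ± 22.9 FPKM in ESCs (SD, n = 3 each; log2 difference -2.12, limma adjusted p = 0.00524). Mmp2, a protease that cuts basement membrane collagen, averaged 9.69 ± 1.50 FPKM in EpiLCs and 1.98 ± 1.11 FPKM in ESCs (1.90, limma adjusted p = 0.00949). Timp1, an inhibitor of such proteases, averaged 11.0 ± 2.66 FPKM in EpiLCs and 39.2 ± 3.96 FPKM in ESCs (-1.76, limma adjusted p = 0.00501), and P4ha2, a collagen prolyl hydroxylase subunit, rose by 1.63 (limma adjusted p = 0.0279). Timp3, another inhibitor of this class, averaged 2.68 ± 0.369 FPKM in EpiLCs and 0.860 ± 0.381 FPKM in ESCs (1.00, limma adjusted p = 0.0244), so the inhibitors did not move together.

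The counts of the next 3 lists also stand beside 9.73% of all genes tested that rose and 10.6% that fell. Other matrix glycoproteins and proteoglycans held 2 genes that rose and 6 that fell among 17 tested (median -0.24). Spp1, osteopontin, averaged 23.2 ± 8.05 FPKM in EpiLCs and 353 ± 36.1 FPKM in ESCs (SD, n = 3 each; -3.93, limma adjusted p = 0.00159). Cthrc1, a secreted collagen triple helix repeat protein, averaged 32.1 ± 0.576 FPKM in EpiLCs and 0.469 ± 0.106 FPKM in ESCs (4.50, limma adjusted p = 0.000672). Thbs1, thrombospondin-1, rose by 2.49 (limma adjusted p = 0.0116), and Agrn, the basement membrane proteoglycan agrin, differed by -1.85 (limma adjusted p = 0.00283). Of 12 other matrix receptors, 3 rose and 1 fell (median 0.44): the collagen receptor gene Ddr1 (1.03, limma adjusted p = 0.0459), the syndecan gene Sdc1 (0.67, limma adjusted p = 0.0466) and the dystroglycan gene Dag1 (0.62, limma adjusted p = 0.0473) were higher, and the glypican gene Gpc4 was lower (-1.29, limma adjusted p = 0.0161). Of 22 focal adhesion genes, which link integrins to actin, 3 rose and 5 fell (median -0.19). Tns1, tensin-1, differed by -1.59 (limma adjusted p = 0.00803), Fermt2, an integrin activator of the kindlin family, by -1.06 (limma adjusted p = 0.0150) and Kank2 by -1.04 (limma adjusted p = 0.0149), while the adaptor gene Bcar1 rose by 1.06 (limma adjusted p = 0.0157).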

How the data were processed

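The authors deposited 1 FPKM value per gene and library, made with TopHat and Cufflinks on mm9, per the submitters' processing notes; no version, annotation or strand setting is stated there. Poly(A) RNA was primed with random hexamers, per the labels' protocols, with no step that marks strand, so reads of overlapping genes cannot be told apart (13 genes of the set overlap another entry, Nid2 among them). Of 23112 entries per library, 17 exact repeats were dropped and entries sharing a symbol were summed. FPKM are not counts, so limma 3.58.1 in R 4.3.3 (eBayes with trend, two-sided) was run on log2(FPKM + 1) where a gene averaged 1 FPKM or more over the fit. A fold on this scale understates changes of low genes. The script was tested on simulated data. Replicate cultures were independent, per the labels' protocols; within EpiLC the spread includes activin A. Pairs of single libraries were counted at a log2 ratio of (FPKM + 1) of at least 1 in size with 5 FPKM in 1 of the pair. FPKM keep no depth, and the depths given are rough. The genes named were those called, past the pair rule with dox or activin A, or with a mean of at least 10 FPKM. Col4a1, Col2a1, Col5a1, Col5a3, Itgb3, Timp3, Sox7, Hnf4a, Plat, Cubn and Afp were added after their values were seen. One gene of the set that is in the counts is not reported here. The set, the 4 other gene lists and the 5 marker lists were chosen with earlier results of these data known. Promoter windows came from RefSeq (GRCm38.p6), for 69 of the 96 genes. Alternatives were other pseudocounts, filters and scalings, no trend, no line term and leaving out each library.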

Additional observations from a re-analysis of the deposited data

How the results depend on the processing

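In the comparison of EpiLC with ESC, Lamb1, Fn1, Lama1 and Lamb2 were called in the reported fit and under all 14 alternatives. Leaving out each library gave between 1 and 6 genes of the set higher and between 3 and 17 lower, and leaving out either E14 library rests the contrast on 2 R1 libraries of each state. With no filter on low values 9 genes were higher, since more low genes were tested. Over all genes, 2484 were called in the reported fit and between 398 and 4118 under the alternatives; the counts were 40 and between 0 and 127 for the response of E14 minus R1, 20 and between 17 and 59 for Otx2-/- EpiLC, 17 and between 5 and 37 for Otx2-/- ESC, and 34 and between 11 and 55 for the Otx2-/- response. With a 10 FPKM minimum, 3 genes of the set were lower with dox and 3 lower in R1 ESC replicate 1, since fewer genes could be counted; with a pseudocount of 0.1 FPKM, 1 gene was higher in that replicate. The log2 difference of Itgb5 (0.05) ran between -0.031 and 0.19 when 1 library was left out, and it reversed to -0.031 without R1 ESC replicate 1 and to -0.010 without R1 EpiLC with activin A; the cause was not tested. Of 313 refitted log2 differences of single genes, 264 kept direction and side of the threshold, 42 lost the call, 5 gained it and 2 reversed. No paired analysis was possible because the groups compared share fewer than 2 replicate numbers. The pairing of states by line is the line term of the reported fit. Without that term 6 genes of the set were higher and 11 lower, with no share over all genes given for that fit. With 1 library for most groups, and fewest fragments in the shallowest of them, values under 1 FPKM rest on few fragments.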
